A study of Mus musculus with 21 samples.

Results

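The tRNAs described here are the 6 that mouse mitochondrial DNA encodes on its plus strand ahead of mt-Co1, the gene of cytochrome c oxidase subunit I. They carry phenylalanine (Phe-GAA-MT, gene mt-Tf), valine (Val-TAC-MT, mt-Tv), leucine (Leu1-TAA-MT, mt-Tl1), isoleucine (Ile-GAT-MT, mt-Ti), methionine (Met-CAT-MT, mt-Tm) and tryptophan (Trp-TCA-MT, mt-Tw). They were chosen by gene position and not by their levels, though with earlier results of these data known. They make up 6 of the 22 mitochondrial tRNAs and 6 of 213 tRNA entries counted in all. All 6 were counted in both tissues and passed the filter on low counts.

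The libraries came from C57BL/6J mice given tamoxifen, which induced recombination on postnatal day 28; brains were taken and frozen on day 42. Mice labelled Polr3a mutant gave 5 cerebellum and 4 cerebrum libraries, and wildtype mice, which received tamoxifen too, gave 6 of each. Each group holds both sexes, and the promoter or cell type that drives the recombination is not named in the labels. Nor do the labels state that each library is a different animal, and the p-values therefore cover the library-to-library spread, which may be technical. In bulk tissue, fewer cells of a type and less RNA per cell cannot be told apart. The largest RNA polymerase III subunit is the product of Polr3a, whose own transcript is not part of a tRNA library, so the genotype labels could not be checked against these counts. Cerebellum libraries held 1628057 to 7158467 counts and cerebrum libraries 4365247 to 7614658, and the smallest count behind any value of a member is 2544, for Leu1-TAA-MT in a cerebellum wildtype library. The method, QuantM-tRNA-seq, is a sequencing protocol for mature tRNAs.

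RNA polymerase III transcribes nuclear tRNA genes, not these. Both strands of mitochondrial DNA are copied by the mitochondrial RNA polymerase into long precursors in which tRNAs sit between the rRNAs and mRNAs, and the tRNAs are released by cutting at their ends, which also frees their neighbours. Phe-GAA-MT and Val-TAC-MT stand on either side of the small rRNA gene mt-Rnr1, and Val-TAC-MT and Leu1-TAA-MT on either side of the large rRNA gene mt-Rnr2. Ile-GAT-MT and Met-CAT-MT follow the NADH dehydrogenase gene mt-Nd1, and Trp-TCA-MT follows mt-Nd2.

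The gene sequences are shown because length, neighbours and the run of bases that members share bear on how reads were assigned. They are the GENCODE M21 genes on mm10, plus strand, from 5′ to 3′, with the anticodon in capitals; the CCA end that is added after transcription is not encoded.
mt-Tf, chrM:1-68: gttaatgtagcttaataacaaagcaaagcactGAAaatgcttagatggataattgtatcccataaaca
mt-Tv, chrM:1025-1093: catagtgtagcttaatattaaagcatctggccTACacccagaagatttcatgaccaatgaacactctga
mt-Tl1, chrM:2676-2750: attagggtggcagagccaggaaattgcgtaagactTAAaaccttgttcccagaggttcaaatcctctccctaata
mt-Ti, chrM:3706-3774: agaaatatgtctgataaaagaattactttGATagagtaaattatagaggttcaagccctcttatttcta
mt-Tm, chrM:3845-3913: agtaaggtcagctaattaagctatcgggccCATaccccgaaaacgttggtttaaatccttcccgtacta
mt-Tw, chrM:4950-5016: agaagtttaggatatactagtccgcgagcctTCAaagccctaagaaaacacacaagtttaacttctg

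The genes are 67 to 75 bases long with 27.5% to 44.9% G and C, and any pair of members shares 46.4% to 59.2% of aligned bases. The longest run of identical bases within the set is TGTAGCTTAATA, 12 bases at positions 6 to 17 of both mt-Tf and mt-Tv. A run of 12 bases is also the longest that a member shares with another mitochondrial tRNA, between mt-Tm and mt-Ty. The last 3 bases of mt-Ti overlap the minus-strand glutamine gene mt-Tq, mt-Ti overlaps mt-Nd1 by 2 bases, and mt-Tw overlaps mt-Nd2 by 2. The sources used here do not state whether the counting used strand, so reads from such overlaps cannot be assigned with certainty.

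Trp-TCA-MT, Val-TAC-MT and Phe-GAA-MT were the 3 most counted of the 22 mitochondrial tRNAs in each of the 4 groups, while Leu1-TAA-MT ranked 18 to 21. Together the 6 members held 41.6% ± 1.45 (SD, n = 5) of mitochondrial tRNA counts in cerebellum mutants, 39.6% ± 1.15 (SD, n = 6) in cerebellum wildtypes, 50.6% ± 2.77 (n = 4) in cerebrum mutants and 50.4% ± 2.24 (n = 6) in cerebrum wildtypes. As a share of all tRNA counts they held 7.14% ± 1.32 in cerebellum mutants and 5.31% ± 0.369 in cerebellum wildtypes, and 7.22% ± 0.278 in cerebrum mutants and 5.64% ± 0.104 in cerebrum wildtypes.

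Levels between members were compared as CPM (read counts brought to a common library size, with TMM scaling within a tissue) per base of gene. How evenly different tRNAs are captured and counted was not tested, so these values compare counts and are not measured numbers of molecules. Leu1-TAA-MT was the lowest member in all 4 groups, and the highest member stood 12.36 to 14.23 times above it. In cerebellum the order was Phe-GAA-MT, Trp-TCA-MT, Val-TAC-MT, Met-CAT-MT, Ile-GAT-MT and Leu1-TAA-MT in both genotypes, and every library kept this order. Cerebellum mutants averaged 416 ± 78.9 CPM per base for Phe-GAA-MT and 31.0 ± 9.76 for Leu1-TAA-MT (SD, n = 5), against 289 ± 48.5 and 23.4 ± 2.53 in cerebellum wildtypes (n = 6).

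In cerebrum Trp-TCA-MT and Val-TAC-MT came before Phe-GAA-MT in both genotypes. Trp-TCA-MT averaged 420 ± 121 CPM per base in cerebrum mutants (n = 4) and 301 ± 33.7 in cerebrum wildtypes (n = 6), and Phe-GAA-MT averaged 170 ± 18.9 and 173 ± 31.1. Neighbours in this order were not always apart: in cerebrum mutants Trp-TCA-MT exceeded Val-TAC-MT in 3 of 4 libraries, and in cerebrum wildtypes Val-TAC-MT exceeded Phe-GAA-MT, and Met-CAT-MT exceeded Ile-GAT-MT, in 5 of 6.

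The first comparison asked how the Polr3a mutation altered these tRNAs in cerebrum. Relative to the whole tRNA pool, Val-TAC-MT, Met-CAT-MT and Trp-TCA-MT rose in mutants, by 0.59, 0.44 and 0.48 on the log2 scale, while Phe-GAA-MT lay at −0.02. On the scale of the mitochondrial total none of these 3 passed and Phe-GAA-MT fell. In the edgeR quasi-likelihood test with TMM scaling and Benjamini-Hochberg adjustment over 208 tRNAs, 3 of 6 members passed an adjusted p of 0.05, all higher; over all 208, 19.7% passed, 8.17% as higher and 11.5% as lower.

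Phe-GAA-MT, the tRNA at the very start of the precursor, had 10342, 13184, 10789.6 and 12053 CPM in cerebrum mutants 1 to 4, against 7970.1, 12042 and 14349 CPM as the lowest, median and highest of the 6 wildtypes. All 4 mutants lay inside the wildtype range. The log2 fold change was −0.02 ± 0.14 (SE; edgeR adjusted p = 0.951).

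Val-TAC-MT, which in human mitochondrial ribosomes is also built into the large subunit, had 22401, 21540.0, 22656 and 23685 CPM in cerebrum mutants 1 to 4, against 13891, 14496 and 16731 CPM as the lowest, median and highest wildtypes. Every mutant lay above every wildtype, the only member of which this was true; 5.77% of the 208 tRNAs were separated in this direction and 9.62% in the other. The log2 fold change was 0.59 ± 0.11 (SE; edgeR adjusted p = 6.13e-04), the highest of all 208, and it passed with any 1 library left out.

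Leu1-TAA-MT, which reads the leucine codons that begin with UU, had 1942, 2088, 1922 and 2907 CPM in cerebrum mutants 1 to 4, against 1373, 1541 and 2331 CPM as the lowest, median and highest wildtypes. Mutant 4 stood apart from the other mutants, and 2 wildtypes lay above the lowest mutant. The log2 fold change of 0.36 ± 0.16 (SE) did not pass (edgeR adjusted p = 0.127), though it did without mutant 1 (adjusted p = 0.0426) or without wildtype 6 (adjusted p = 0.0373).

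Ile-GAT-MT had 3413, 3080.2, 3400.2 and 3639 CPM in cerebrum mutants 1 to 4, against 2380.4, 2591 and 4792 CPM as the lowest, median and highest wildtypes. All mutants exceeded 5 of the 6 wildtypes, and wildtype 1 alone stood above all mutants. The log2 fold change of 0.21 ± 0.17 (SE) did not pass (edgeR adjusted p = 0.383); without wildtype 1 it was 0.44, with an adjusted p of 0.00992.

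Met-CAT-MT, the single methionine tRNA that mitochondria use both to start and to extend proteins, had 5755, 5112, 5999 and 6147 CPM in cerebrum mutants 1 to 4, against 3689, 4177 and 5141 CPM as the lowest, median and highest wildtypes. The groups overlapped by 1 library on each side. The log2 fold change was 0.44 ± 0.12 (SE; edgeR adjusted p = 0.0106), and it passed with any 1 library left out; scaled to library totals it was 0.41 and did not pass (adjusted p = 0.0520).

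Trp-TCA-MT, which in mitochondria also reads UGA, a stop codon in the nuclear code, had 39886, 27046, 23050.3 and 22606 CPM in cerebrum mutants 1 to 4, against 18302, 19725 and 24181 CPM as the lowest, median and highest wildtypes. Mutant 1 stood well above the other libraries, and 2 mutants lay below the highest wildtype. The log2 fold change was 0.48 ± 0.15 (SE; edgeR adjusted p = 0.0296). Without mutant 1 it was 0.31 and still passed, and without wildtype 2 it no longer passed (adjusted p = 0.0613).

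The scale chosen decides part of these calls. Mitochondrial tRNAs as a whole took 12.8% to 15.7% of counts in cerebrum mutants and 10.4% to 11.7% in cerebrum wildtypes, so scaling libraries to their mitochondrial total moved the median log2 fold change of all 208 tRNAs from −0.03 to −0.41. On that scale Phe-GAA-MT fell by 0.41 ± 0.14 (SE; edgeR adjusted p = 0.0141), where 53.4% of all tRNAs passed as lower and 0% as higher, and the call was lost without wildtype 2 (adjusted p = 0.0517). Val-TAC-MT was at 0.20 ± 0.12 (adjusted p = 0.158), Met-CAT-MT at 0.05, Trp-TCA-MT at 0.08, Leu1-TAA-MT at −0.03 and Ile-GAT-MT at −0.18, and none of these 5 passed. Scaled to the spike-in, 0 of 6 members passed, where 74 of all 208 tRNAs passed as lower and 0 as higher, with a median of −0.36.

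A change of scale shifts all tRNAs nearly alike, so a distance from the median of all tRNAs is close to fixed by construction over the 7 scales tried and is given only to place the members. Val-TAC-MT lay 0.61 to 0.62 above it, Trp-TCA-MT 0.46 to 0.51, Met-CAT-MT 0.46 to 0.48, Leu1-TAA-MT 0.38 to 0.42 and Ile-GAT-MT 0.22 to 0.25, whereas Phe-GAA-MT lay 0.0008 to 0.0142 above it. In the authors' deposited tables, whose mean levels were matched to within 0.45% over the 208 tRNAs of the cerebrum table by counts divided by a median of ratios over the 22 mitochondrial rows, Phe-GAA-MT stands at −0.43 in mutants over wildtypes and Val-TAC-MT at 0.18, with adjusted p of 0.0214 and 0.0337 in the table per tRNA, whose deposited signs run wildtype over mutant and are turned here. In the same authors' deposited table the other 4 members have adjusted p between 0.382 and 0.845.

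The other mitochondrial tRNAs of cerebrum, listed by gene position, lay at similar values. Of the 8 on the plus strand downstream of mt-Co1, 7 rose and 0 fell (median 0.45, TMM scaling), and of the 8 on the minus strand 5 rose and 0 fell (median 0.41), beside 3 of 6 members (median 0.40) and a median of −0.03 over all 208. The lowest of the other lists were Ser1-TGA-MT (0.06) on the minus strand and His-GTG-MT (0.23) downstream, and neither passed. Nuclear tRNAs for the same 6 amino acids, which RNA polymerase III makes, had 0 of 48 higher and 12 lower, from Leu-CAG-2 at 0.29 (edgeR adjusted p = 0.0876) to Met-CAT-4-1 at −1.75 (adjusted p = 4.72e-06).

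**Figure D1:**
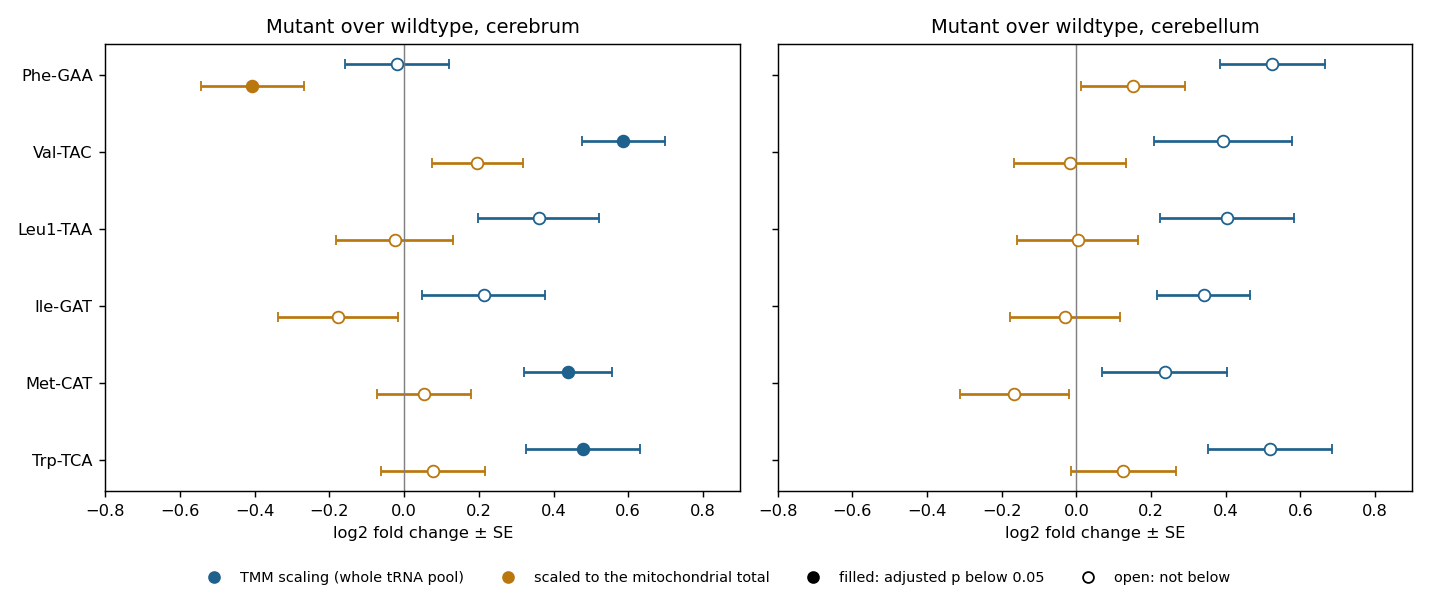
Log2 fold change of mutant over wildtype libraries (x axis, ± SE from edgeR) for the 6 members (y axis) in cerebrum and cerebellum, with TMM scaling in blue and scaling to the mitochondrial total in brown; filled points have an adjusted p below 0.05. With TMM scaling Val-TAC-MT, Met-CAT-MT and Trp-TCA-MT pass in cerebrum, and with mitochondrial scaling only Phe-GAA-MT does, at −0.41; in cerebellum no point is filled.

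In cerebellum, where the same question was asked, none of the 6 members passed, with all 6 log2 fold changes above 0 on the TMM scale, from 0.24 to 0.52. Phe-GAA-MT was the nearest to passing, at 0.52 ± 0.14 (SE; edgeR adjusted p = 0.0514). In the edgeR test over 202 tRNAs 2.48% passed after adjustment, 0.495% as higher and 1.98% as lower. Before adjustment the edgeR p-values of the members ran from 0.00188 (Phe-GAA-MT) to 0.178 (Met-CAT-MT). Tyr-GTA-MT and Lys-TTT-MT, with the highest log2 fold changes on the minus strand and downstream, had unadjusted edgeR p of 0.00311 and 0.0235. The lowest of these lists, Gln-TTG-MT and Leu2-TAG-MT, had 0.615 and 0.941. Small unadjusted values were thus not particular to the members. With DESeq2, 3 members passed: Phe-GAA-MT (adjusted p = 0.00663), Trp-TCA-MT (0.0229) and Ile-GAT-MT (0.0342). The share of all tRNAs that passed with DESeq2 is not given here, and edgeR's 2.48% is no background for this count.

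Phe-GAA-MT had 36966, 27757, 22348, 26248 and 28272 CPM in cerebellum mutants 1 to 5, against 16556, 19369.6 and 25638 CPM as the lowest, median and highest wildtypes. Of the 5 mutants, 4 lay above every wildtype. In none of the 6 members were the groups fully apart; over all 202 tRNAs 0.99% were, as higher, and 1.98% as lower. Trp-TCA-MT had 23175, 18333, 11886, 16336 and 24299.6 CPM in mutants 1 to 5, against 11413, 12335 and 16720.1 CPM as the lowest, median and highest wildtypes. Mutant 3 lay near the wildtype minimum, and the log2 fold change was 0.52 ± 0.17 (SE; edgeR adjusted p = 0.1002); without that library it was 0.65 (adjusted p = 0.0105).

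Val-TAC-MT had 20449.8, 10175, 11770.4, 11129.6 and 18192 CPM in cerebellum mutants 1 to 5, against 9101, 10649 and 14499 CPM as the lowest, median and highest wildtypes. Mutants 1 and 5 lay above every wildtype and the other 3 inside their range, at 0.39 ± 0.18 (SE; edgeR adjusted p = 0.247) for the group. Met-CAT-MT showed the same 2 mutants above every wildtype, with 6078, 3593, 4206, 4857 and 7300.1 CPM in mutants 1 to 5, against 3581, 4355 and 5122 CPM as the lowest, median and highest wildtypes (log2 fold change 0.24 ± 0.17 SE, edgeR adjusted p = 0.494). Mutants 1 and 5 were also the libraries with the highest mitochondrial share of counts, 21.2% and 19.3%, beside at most 16.4% in the other 3 mutants and 12.5% to 14.4% in wildtypes; the part of this in the values was not tested.

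Leu1-TAA-MT had 2624, 1559, 1514, 2912 and 3008 CPM in cerebellum mutants 1 to 5, against 1578, 1687 and 2022 CPM as the lowest, median and highest wildtypes. The mutants fell on both sides of the wildtypes, 3 above all of them and 2 below (0.40 ± 0.18 SE, edgeR adjusted p = 0.216). Ile-GAT-MT had 3772, 2907, 3370.2, 3496 and 4359 CPM in mutants 1 to 5, against 2519.8, 2754 and 3529 CPM as the lowest, median and highest wildtypes. Wildtype 5 alone stood inside the mutant range (0.34 ± 0.12 SE, edgeR adjusted p = 0.123).

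**Figure D2:**
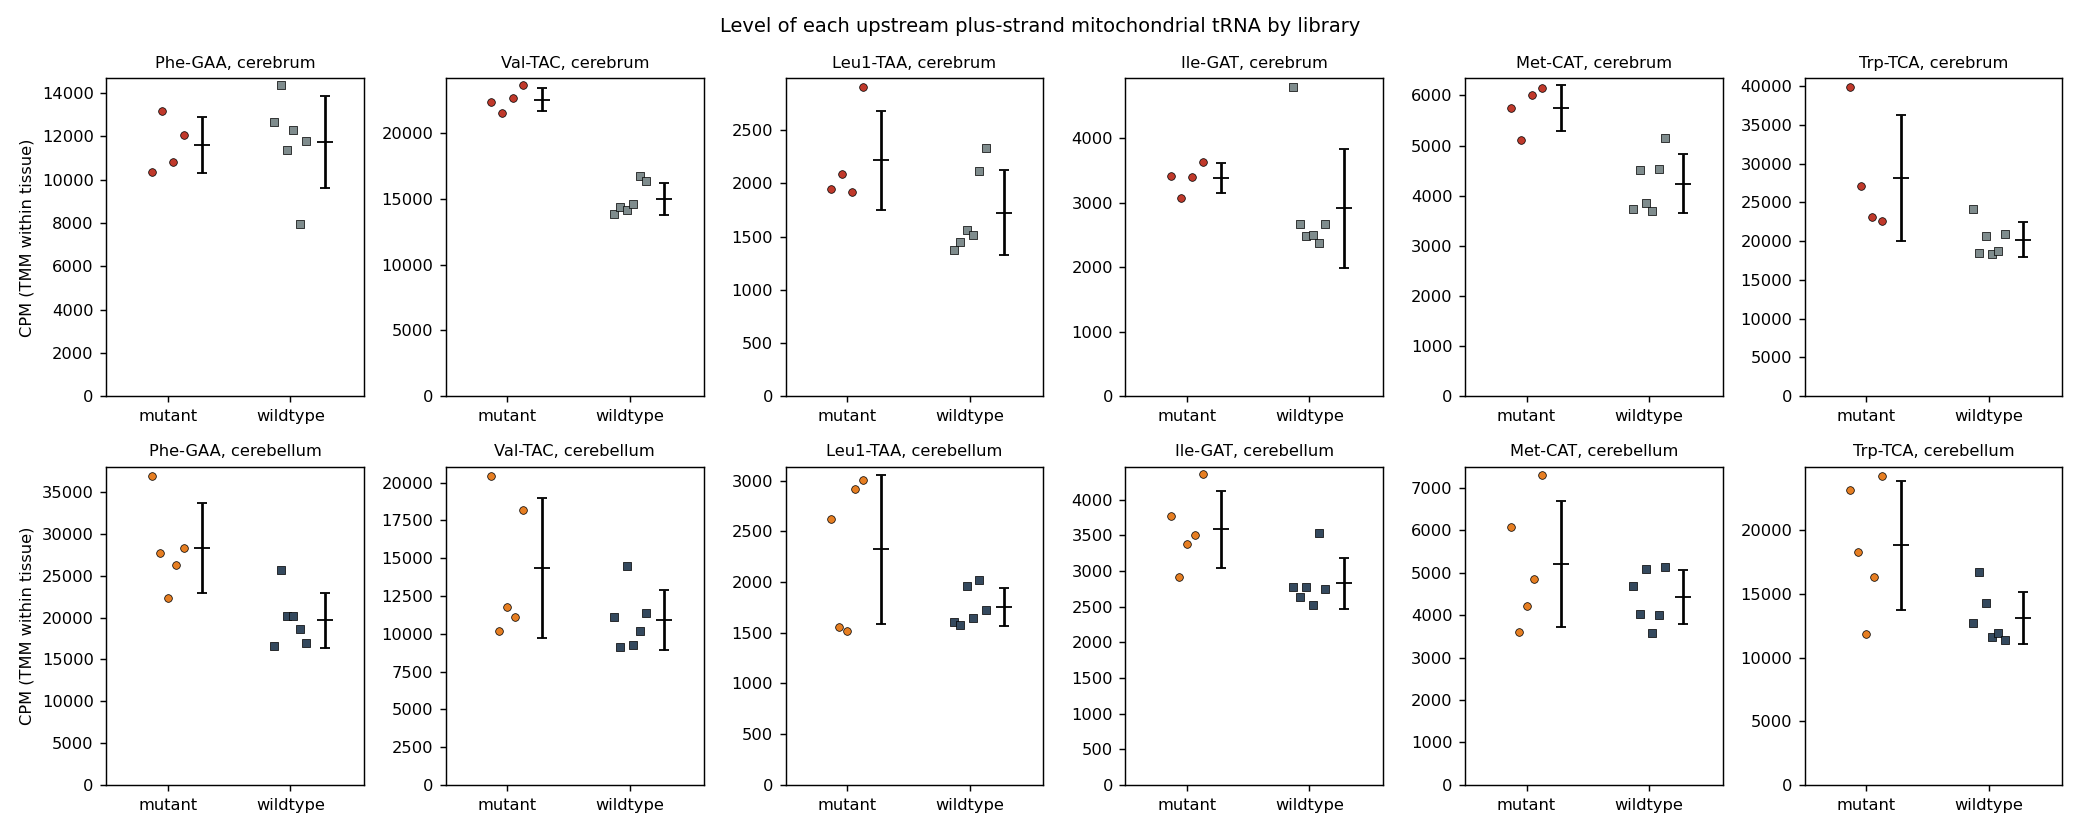
Level of each member in CPM (y axis, from 0; TMM scaling within a tissue) by library, for cerebrum in the upper row and cerebellum in the lower row, mutants as circles and wildtypes as squares, with the group mean and SD beside them. Val-TAC-MT in cerebrum is the only panel in which the groups do not overlap, and cerebrum wildtype 1 for Ile-GAT-MT and cerebrum mutant 1 for Trp-TCA-MT stand apart from their groups.

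Sequencing depth moved with genotype in cerebellum: mutant 1 and 5 wildtypes held under 3500000 counts, and 4 mutants and wildtype 5 held more. Within the shallow class, Phe-GAA-MT was at 0.89 (log2 ratio of mean CPM, 1 mutant against 5 wildtypes), Val-TAC-MT at 0.89 and Trp-TCA-MT at 0.79, and within the deep class, with 4 mutants against 1 wildtype, they were at 0.49, 0.33 and 0.57. Leu1-TAA-MT, Met-CAT-MT and Ile-GAT-MT were at 0.62, 0.43 and 0.49 in the shallow class and at 0.15, 0.31 and 0.0016 in the deep class. Each class holds a lone library of 1 genotype and allows no test of its own. The part of depth in these values was not tested beyond a covariate. With depth class as that covariate 0 of 6 members passed and values ran from 0.25 (Ile-GAT-MT) to 0.70 (Phe-GAA-MT, edgeR adjusted p = 0.0682).

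Scaled to the mitochondrial total, the cerebellum members lay between −0.17 (Met-CAT-MT) and 0.15 (Phe-GAA-MT), none passed where 26.2% of 202 tRNAs did, all lower, and the median over the 202 was −0.37 in place of −0.03. In the authors' deposited table per tRNA for cerebellum, Phe-GAA-MT stands at 0.19 (adjusted p = 0.360) and no member passes 0.05. Medians with TMM scaling were 0.40 for the members, 0.37 for the 8 minus-strand and 0.27 for the 8 downstream mitochondrial tRNAs, of which 0 passed, against −0.03 over all 202. Of 48 nuclear tRNAs for the same amino acids 0 passed, from Leu-CAA-1-1 at 0.48 to Met-CAT-4-1 at −0.47.

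Whether the mutation acted differently in cerebellum and in cerebrum was tested as the difference of the 2 log2 fold changes, over all 21 libraries. With edgeR 0 of 6 members passed, as with DESeq2, and 4.9% of 204 tRNAs passed after adjustment with edgeR, all higher. Before adjustment the smallest edgeR p among the members was 0.0138, that of Phe-GAA-MT. Phe-GAA-MT had the highest difference among the members, 0.52 ± 0.20 (SE; edgeR adjusted p = 0.154), and 0.56 on the mitochondrial scale (adjusted p = 0.131), where 3.43% of tRNAs passed, all higher. The other 5 lay between −0.22 (Met-CAT-MT) and 0.09 (Ile-GAT-MT). A difference between the tissues in the effect of genotype was not shown for any member. The test had little power for small differences, since on simulated data it recovered 38% of 1.5-fold ones.

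The make-up of the mitochondrial pool needs no scaling to the nuclear tRNAs. In cerebellum mutants Phe-GAA-MT made up 16.4% ± 1.78 of mitochondrial tRNA counts (SD, n = 5) and in cerebellum wildtypes 14.8% ± 1.87 (n = 6), while in cerebrum mutants it made up 7.99% ± 1.01 (n = 4) and in cerebrum wildtypes 10.6% ± 1.88 (n = 6). Val-TAC-MT made up 8.11% ± 1.11 in cerebellum mutants and 8.20% ± 1.28 in cerebellum wildtypes, and 15.5% ± 0.884 in cerebrum mutants and 13.6% ± 1.06 in cerebrum wildtypes. Trp-TCA-MT made up 10.7% ± 1.51 and 9.83% ± 0.972 in cerebellum mutants and wildtypes, and 19.2% ± 4.72 and 18.2% ± 1.96 in cerebrum mutants and wildtypes. For these 3 tRNAs all 11 cerebellum libraries fell outside the range of the 10 cerebrum libraries, higher for Phe-GAA-MT and lower for Val-TAC-MT and Trp-TCA-MT. Such separation was not particular to the members. Ala-TGC-MT made up at least 1.87% in cerebellum and at most 1.36% in cerebrum, and His-GTG-MT at least 3.18% and at most 2.39%. Glu-TTC-MT made up at least 2.05% in cerebellum and at most 1.505% in cerebrum, and Thr-TGT-MT at least 5.31% and at most 4.36%. Asn-GTT-MT was lower, at most 1.43% in cerebellum and at least 1.57% in cerebrum. The remaining mitochondrial tRNAs outside the set overlapped between the tissues. How many nuclear tRNAs were separated in this way was not counted.

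The other 3 members made up less of the pool and overlapped between tissues. Met-CAT-MT made up 2.97% ± 0.420 and 3.33% ± 0.516 in cerebellum mutants and wildtypes, and 3.96% ± 0.368 and 3.82% ± 0.437 in cerebrum mutants and wildtypes. Ile-GAT-MT made up at most 2.66% in the cerebellum libraries and at least 2.14% in the cerebrum libraries, and Leu1-TAA-MT ranged from 1.06% to 1.81% in cerebellum and from 1.24% to 2.01% in cerebrum.

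**Figure D3:**
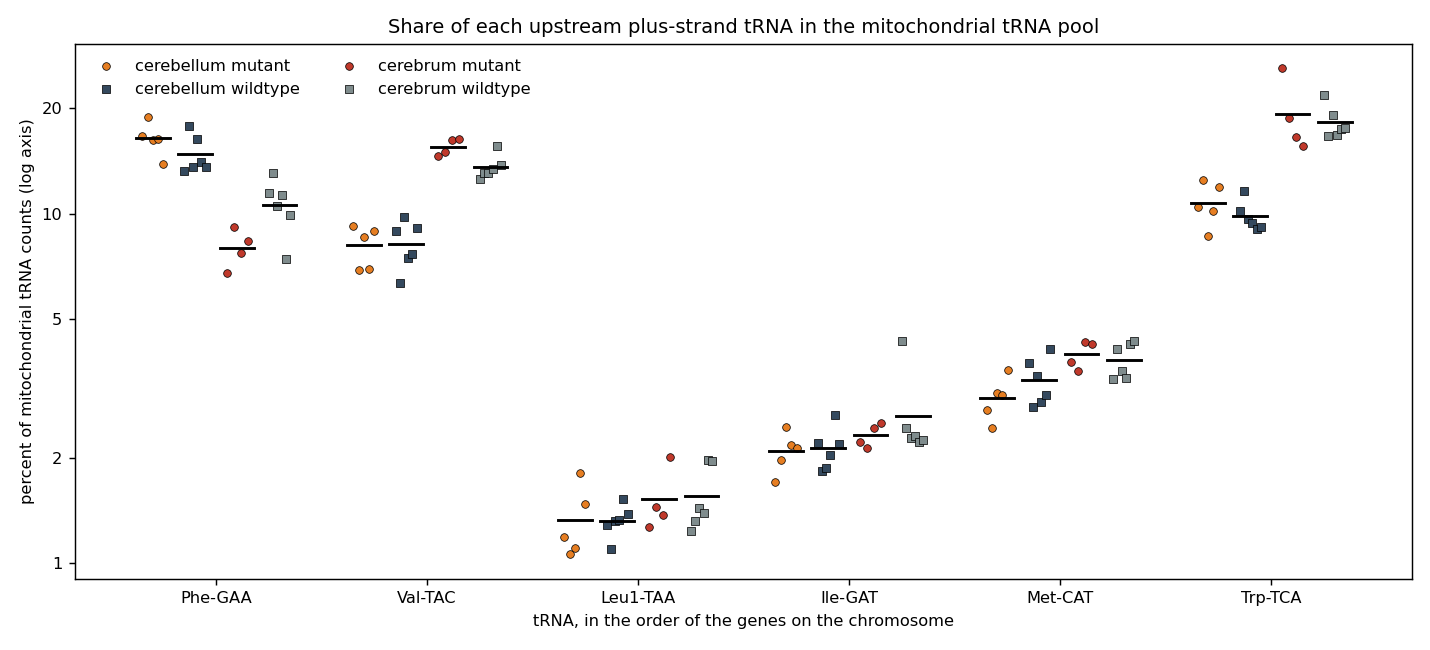
Share of each member among mitochondrial tRNA counts (y axis, percent, log scale) by library, in the order of the genes on the chromosome, with the group mean as a black line; circles are mutants and squares wildtypes. Phe-GAA-MT is higher, and Val-TAC-MT and Trp-TCA-MT lower, in every cerebellum library than in every cerebrum library, while Leu1-TAA-MT, Ile-GAT-MT and Met-CAT-MT overlap. Some mitochondrial tRNAs that are not drawn separate the tissues as well.

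The ratio of Phe-GAA-MT to Val-TAC-MT counts set the tissues apart without any scaling. It was 1.81, 2.73, 1.90, 2.36 and 1.55 in cerebellum mutants 1 to 5, with 1.39, 1.66 and 2.82 as the lowest, median and highest cerebellum wildtypes. In cerebrum it was 0.462, 0.612, 0.476 and 0.509 in mutants 1 to 4, with 0.476, 0.823 and 0.997 as the lowest, median and highest wildtypes. Counts of Phe-GAA-MT thus exceeded those of Val-TAC-MT in all 11 cerebellum libraries and in none of the 10 cerebrum libraries. Within cerebrum the means were 0.515 ± 0.0679 in mutants (SD, n = 4) and 0.792 ± 0.181 in wildtypes (n = 6), and wildtype 5 lay inside the mutant range. Within cerebellum they were 2.07 ± 0.469 in mutants (n = 5) and 1.87 ± 0.552 in wildtypes (n = 6), a difference smaller than either SD. Ratios of the other neighbouring members overlapped between the tissues. Val-TAC-MT per Leu1-TAA-MT, for example, reached 7.79 in cerebellum mutants and went down to 7.02 in cerebrum wildtypes. The Phe-GAA-MT to Val-TAC-MT ratio restates the opposite shares of these 2 tRNAs given above.

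**Figure D4:**
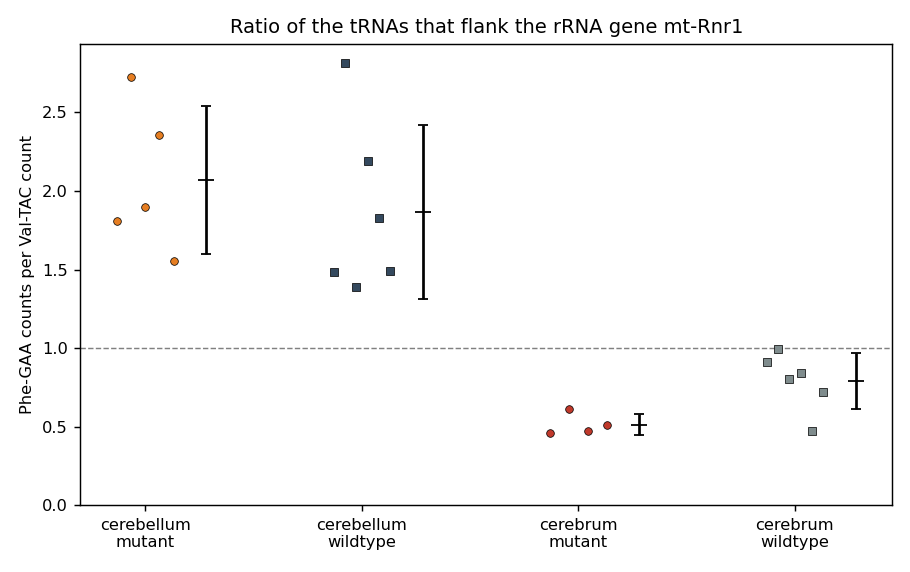
Phe-GAA-MT counts per Val-TAC-MT count (y axis, from 0) in each library of the 4 groups, with the group mean and SD beside the points and a dashed line at equal counts. All 11 cerebellum libraries lie above the line, between 1.39 and 2.82, and all 10 cerebrum libraries below it, between 0.462 and 0.997.

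The last comparison set cerebellum against cerebrum within each genotype. Phe-GAA-MT was higher in cerebellum, and Val-TAC-MT and Trp-TCA-MT lower, in both genotypes, apart from Phe-GAA-MT on the spike-in scale. With TMM scaling over the 21 libraries, Phe-GAA-MT was at 0.97 ± 0.15 in mutants (SE; edgeR adjusted p = 3.30e-06) and 0.45 ± 0.13 in wildtypes (adjusted p = 0.00247). Val-TAC-MT was at −0.97 ± 0.17 in mutants (adjusted p = 9.58e-06) and −0.76 ± 0.14 in wildtypes (adjusted p = 3.13e-05). Trp-TCA-MT was at −0.91 ± 0.17 in mutants (adjusted p = 4.47e-05) and −0.91 ± 0.15 in wildtypes (adjusted p = 5.31e-06).

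In mutants 4 of 6 members passed, 1 higher and 3 lower, where 72.5% of 204 tRNAs passed, 35.8% as higher and 36.8% as lower. In wildtypes 4 of 6 passed, again 1 higher and 3 lower, where 71.1% passed, 33.3% as higher and 37.7% as lower, so the number of members that passed was near the share in the whole tRNA pool. Scaled to the mitochondrial total, 4 members passed in mutants (1 higher, 3 lower), where 70.1% of tRNAs passed, 37.3% as higher and 32.8% as lower. On that scale 3 passed in wildtypes (1 higher, 2 lower), where 68.6% passed, 33.8% as higher and 34.8% as lower. The third lower one was Met-CAT-MT in mutants (−0.46 ± 0.16 SE, edgeR adjusted p = 0.0121; −0.24 and adjusted p = 0.126 in wildtypes) and Ile-GAT-MT in wildtypes (−0.32 ± 0.13 SE, adjusted p = 0.0299; −0.24 and adjusted p = 0.164 in mutants). The Met-CAT-MT call was lost with library totals (−0.16) and nuclear totals (−0.10). The Ile-GAT-MT call was lost without cerebrum wildtype 1, where it was −0.15 (edgeR adjusted p = 0.244). Without cerebellum wildtype 2, 3, 4 or 6 the call was lost at −0.29 to −0.32 (edgeR adjusted p = 0.0507 to 0.0670). It was also lost with RLE size factors (adjusted p = 0.0578), DESeq2 (0.0564), mitochondrial totals (0.0713), library totals (0.838) and nuclear totals (0.983). Leu1-TAA-MT did not pass in mutants (−0.25) or in wildtypes (−0.28) with TMM scaling and no replicate block. With the block it passed in mutants (−0.39), as did Ile-GAT-MT (−0.31). On the spike-in scale Leu1-TAA-MT was at −1.36 in mutants and −1.15 in wildtypes and passed in both (edgeR adjusted p = 2.12e-07 and 4.94e-07). Ile-GAT-MT in mutants (−1.31) and Met-CAT-MT in wildtypes (−1.11) passed there too. Most tRNAs passed as lower on that scale, 141 of 204 in mutants (9 as higher) and 138 of 204 in wildtypes (6 as higher). Over the 13 settings tried, 3 to 6 members passed in each genotype, with the share over all tRNAs not given for every setting.

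Val-TAC-MT and Trp-TCA-MT kept these directions on all 7 scales tried and Phe-GAA-MT on 6; scaled to the spike-in, which put the median over all tRNAs at −1.09 in mutants and −0.985 in wildtypes, Phe-GAA-MT lay at −0.15 in mutants and −0.47 in wildtypes (edgeR adjusted p = 0.0361). Relative to the median of all tRNAs, Phe-GAA-MT lay 0.94 to 0.98 higher in mutants and 0.49 to 0.52 higher in wildtypes over the 7 scales, a distance that scaling hardly touches by construction. The tissues were deposited as separate tables, and a difference between tissues cannot be told apart from a difference in how each table's libraries were made and counted.

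The other mitochondrial tRNAs also differed between the tissues in both directions. In mutants 5 of 8 on the minus strand were higher and 2 lower, and 2 of 8 downstream were higher and 2 lower; in wildtypes the counts were 3 and 2 on the minus strand and 4 and 0 downstream. The highest values were those of Ala-TGC-MT (1.26 in mutants, 1.35 in wildtypes) and His-GTG-MT (1.27 and 1.26). The lowest member in wildtypes, Trp-TCA-MT, was also the lowest of all 22 there. In mutants the lowest of the 22 was Gln-TTG-MT (−1.05), whose minus-strand gene overlaps the end of mt-Ti.

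**Figure D5:**
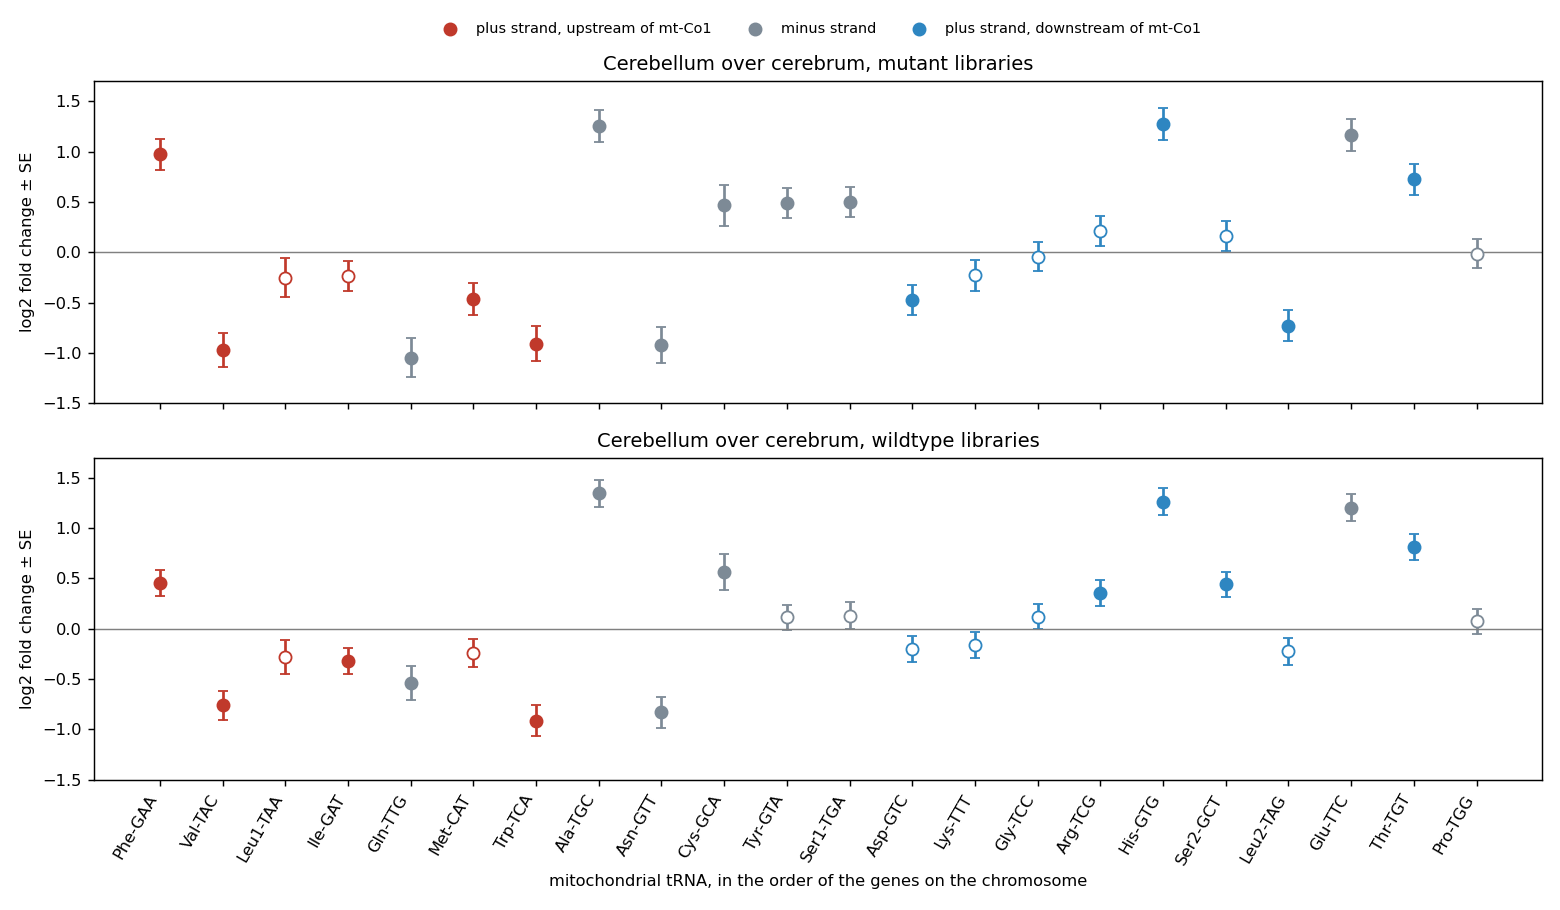
Log2 fold change of cerebellum over cerebrum (y axis, ± SE from edgeR with TMM scaling) for the 22 mitochondrial tRNAs in the order of their genes (x axis), in mutant libraries above and wildtype libraries below; members are red and filled points have an adjusted p below 0.05. Phe-GAA-MT, at 0.97 in mutants and 0.45 in wildtypes, is the only member above 0, beside Val-TAC-MT at −0.97 and −0.76.

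Across the 21 libraries the members did not vary as one group. Likeness was measured as Pearson's r between deviations from the group means of log2 CPM, over 166 tRNAs with a mean count of at least 100, and is given as a description, since the libraries share depth and tables. Val-TAC-MT varied most like Lys-TTT-MT (r = 0.90), Leu2-TAG-MT (0.87) and Met-CAT-MT (0.85) of the mitochondria, and Met-CAT-MT most like the mitochondrial Lys-TTT-MT (0.87), Leu2-TAG-MT (0.85) and Gly-TCC-MT (0.85). Leu1-TAA-MT was most like the mitochondrial Pro-TGG-MT (0.71), Met-CAT-MT (0.70) and Lys-TTT-MT (0.68).

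Phe-GAA-MT had r between −0.05 and 0.34 with the other members, and was most like Ser1-TGA-MT (0.71), Tyr-GTA-MT (0.64) and His-GTG-MT (0.46) of the mitochondria, of which the first 2 are encoded on the minus strand. Trp-TCA-MT was most like the mitochondrial Gln-TTG-MT (0.83), followed by the nuclear Arg-TCT-3-1 (0.78) and Lys-TTT-1 (0.73). Ile-GAT-MT had no near match, its highest values being those of the nuclear Gln-TTG-1-1 (0.49), Thr-TGT-1-1 (0.49) and Gln-TTG-3 (0.43).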

How the data were processed

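Total RNA taken with Trizol went into QuantM-tRNA-seq libraries, per the labels' protocols. The submitters' processing notes name cutadapt, Bowtie2, featureCounts, DESeq2 and mm10, without versions. For each tissue the authors deposited raw read counts per tRNA, and every column was matched by name to 1 of the 21 samples. Their comparison tables hold, per the file headers, log2 fold changes, p-values with adjusted values, the test statistic (a score) and a mean signal per tRNA in units of scaled counts.

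The bacterial spike-in entry, of which neither amount nor step of addition is known here, stayed out of library sizes and tests. The main test was edgeR's quasi-likelihood F test (edgeR 4.0.16, limma 3.58.1, R 4.3.3), robust and two-sided, after TMM scaling and filterByExpr (minimum count 10), with Benjamini-Hochberg adjustment over every tRNA tested and a threshold of 0.05. Genotypes were compared within a tissue; tissues and the difference of effects in a fit of all 21 libraries. The SE is the log2 fold change over the square root of F. CPM values were computed here from the deposited counts. Sequences were read from GENCODE M21 with Biopython 1.88.

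The members and lists were chosen with earlier results of these data known. All 6 members are named, of each other list the highest and the lowest tRNA, and for likeness the 3 nearest. Mitochondrial tRNAs whose shares separated the tissues are named as well. On simulated data, 75.0% of 1.5-fold and 98.5% of 2-fold changes were recovered for the cerebrum comparison (208 tRNAs), and 75.5% and 96.5% for cerebellum (202 tRNAs). For the difference of genotype effects (204 tRNAs) only 38% and 89% were recovered. Between tissues it was 63% and 95% in mutants, and 78% and 96.5% in wildtypes.

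The labels do not say what a replicate number shares. Correlations of same-numbered libraries did not all exceed 0.1, and the fits were left without a block, a choice that does not test pairing. Whether the same number in both tissues is the same animal is not settled. No pair of replicates was as alike as sampling noise allows (chi-square per degree of freedom at least 46.0). The alternatives were RLE size factors, library totals, mitochondrial, nuclear and spike-in totals as scales, DESeq2 1.42.0, limma-voom, other filters, sex or depth class as covariate, a joint fit, a replicate block and leaving out each library. Added after seeing the data were a median of ratios over mitochondrial tRNAs, leaving out libraries or adding depth class on the mitochondrial scale, and leaving out cerebellum mutant 1 with wildtype 5.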

Additional observations from a re-analysis of the deposited data

Results flagged for a closer look

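Among 48 group values of the members (CPM and share of mitochondrial counts in 4 groups), 4 had a library far from the others of its group by Dixon's test at the 95% level, which chance gives in about 1 of 20 groups. Ile-GAT-MT in cerebrum wildtype 1 had 4792 CPM, beside 2380.4 to 2679 CPM in the other 5 cerebrum wildtypes, and 4.32% of mitochondrial tRNA counts, beside 2.21% to 2.43%. Ile-GAT-MT in cerebellum wildtype 5, the only deep library of its group, had 3529 CPM, beside 2519.8 to 2771 CPM in the other 5. Leu1-TAA-MT in cerebrum mutant 4 had 2907 CPM, beside 1922 to 2088 CPM in the other 3 mutants. Without cerebrum wildtype 1 the genotype comparison of Ile-GAT-MT in cerebrum passed, and the tissue comparison in wildtypes did not. That tissue call was also lost without cerebellum wildtype 2, 3, 4 or 6, though its log2 fold change stayed at −0.29 to −0.32. Without cerebrum wildtype 1 the log2 fold change was −0.15, beside −0.32 with all libraries.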

How the results depend on the processing

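The number of members that passed between genotypes in cerebellum was 0 with the settings of the report, 3 with DESeq2, 2 in a joint fit of both tissues, and 1 with RLE size factors, library totals, nuclear total scaling, limma-voom, no filter or a mean count of at least 50; it ran from 0 to 2 with a library left out (2 without mutant 3, 1 without mutant 5 or wildtype 2), and no member passed with mitochondrial or spike-in scaling, with sex or depth class as covariate, or without mutant 1 and wildtype 5 together. In cerebrum it was 3, against 1 with mitochondrial total scaling or a median of ratios over mitochondrial tRNAs, 0 with spike-in scaling, and 2 to 4 with a library left out. Over all 202 cerebellum tRNAs, 3 passed as higher and 4 as lower with RLE size factors, and 2 and 7 with library totals. Nuclear totals gave 3 and 3, and spike-in scaling 0 and 83. Shares over all tRNAs with DESeq2, limma-voom, the joint fit, other filters and the replicate block are not given here. Shares of the mitochondrial pool moved by less than 1 SD with counts pooled; leaving out 1 library cannot move a mean by 1 SD, so it is no test of them.

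Signs that turned belong to values that did not pass, except Phe-GAA-MT between tissues in both genotypes and Ile-GAT-MT between wildtype tissues. Phe-GAA-MT between genotypes in cerebrum was at 0.0464 with RLE size factors or DESeq2, 0.00642 with nuclear totals, 0.00533 with no filter, 0.0127 with sex as covariate and 0.0608 in the joint fit, and ran from −0.0860 to 0.0831 with a library left out. With mitochondrial total scaling, Leu1-TAA-MT and Ile-GAT-MT in cerebrum were at −0.0258 and −0.178, and Val-TAC-MT, Ile-GAT-MT and Met-CAT-MT in cerebellum at −0.0170, −0.0309 and −0.167. With the median of ratios over mitochondrial tRNAs, Leu1-TAA-MT and Ile-GAT-MT in cerebrum were at −0.0522 and −0.225 and Met-CAT-MT in cerebellum at −0.124. With depth class on the mitochondrial scale, Leu1-TAA-MT, Ile-GAT-MT and Met-CAT-MT in cerebellum were at −0.138, −0.267 and −0.156.

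With spike-in scaling Ile-GAT-MT in cerebrum was at −0.13, and Phe-GAA-MT, Val-TAC-MT, Leu1-TAA-MT, Ile-GAT-MT, Met-CAT-MT and Trp-TCA-MT in cerebellum at −0.0294, −0.191, −0.157, −0.190, −0.309 and −0.0253. On that scale the difference of effects was −0.211 for Leu1-TAA-MT, −0.0602 for Ile-GAT-MT and −0.117 for Trp-TCA-MT, and Phe-GAA-MT between tissues was −0.15 in mutants and −0.47 in wildtypes. Between tissues with library totals, Leu1-TAA-MT and Ile-GAT-MT were at 0.0590 and 0.0780 in mutants, and Leu1-TAA-MT and Met-CAT-MT at 0.0186 and 0.0492 in wildtypes. With nuclear totals, Leu1-TAA-MT and Ile-GAT-MT were at 0.115 and 0.129 in mutants, and Leu1-TAA-MT, Ile-GAT-MT and Met-CAT-MT at 0.0540, 0.00389 and 0.0842 in wildtypes. The difference of effects was −0.0392 for Leu1-TAA-MT with limma-voom and −0.00862 for Trp-TCA-MT with a mean count of at least 50, and with a library left out it ran from −0.0782 to 0.19 for Leu1-TAA-MT, from −0.10 to 0.16 for Ile-GAT-MT and from −0.0939 to 0.24 for Trp-TCA-MT. The causes were not tested.

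Same-numbered libraries deviated together in only part of the pairs (2 of 4 between genotypes in cerebrum, 1 of 5 in cerebellum, and 2 of 4 mutant and 4 of 6 wildtype pairs between tissues, at a correlation over 0.1), and 2 of 4, 0 of 5, 1 of 4 and 2 of 6 correlated best with their own number. All 10 same-numbered pairs between tissues are labelled with the same sex, so shared animals are possible but not stated. With a replicate block, 4 members passed between genotypes in cerebrum and 0 in cerebellum, 0 in the difference of effects, and 6 in mutants and 4 in wildtypes between tissues; the added ones were Leu1-TAA-MT in cerebrum (0.56) and Leu1-TAA-MT and Ile-GAT-MT between mutant tissues (−0.39 and −0.31). With the block the difference of effects was −0.142 for Leu1-TAA-MT, −0.00578 for Ile-GAT-MT and −0.0731 for Trp-TCA-MT. The share of all tRNAs that passed with the block is not given here, so these counts of members have no background.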
